A study of Mus musculus with 11 samples.

Results

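A set of 10 genes encoding cytokines and growth factors that glial cells make or answer to were followed in the hippocampus of wild-type and APP/PS1 mice. They were the inflammatory cytokines Il1a, Il1b, Tnf, Il18 and Il33, the microglial survival factors Il34 and Csf1, the transforming growth factors Tgfb1 and Tgfb2, and the insulin-like growth factor Igf1. Each was taken by its symbol from a deposited table of 36826 genes, and all 10 were found and tested. Tgfb1 was called 1.58-fold higher in APP/PS1 hippocampus, and the receptors Tnfrsf1a, Csf1r and Tgfbr1 and the syndecan Sdc1 were called higher as well. The calls of Tgfb1 and Sdc1 ended when any single library other than wild-type replicate 3 was left out. That of Tgfbr1 ended when certain single libraries were left out. Tgfb1, Tgfbr1 and Sdc1 were not called in sham or field-exposed mice alone. No call was made for any of the 10 genes between field-exposed and sham-exposed APP/PS1 mice. The transcripts of Il1a, Il1b and Tnf were scarce in every group.

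Interleukin-1, tumour necrosis factor and interleukin-18 are secreted signals of innate immunity, and in brain they come chiefly from microglia. Interleukin-1β and interleukin-18 are made as inactive precursors that caspase-1 cuts in the inflammasome. Interleukin-33 is stored in the nucleus of oligodendrocytes and astrocytes and is released on damage. CSF1 and interleukin-34 share 1 receptor, CSF1R, on which microglia depend for survival; interleukin-34 is made largely by neurons. TGF-β1 holds microglia in their resting state, and IGF-1 supports growth and myelination.

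Bulk RNA sequencing had been carried out on hippocampal tissue of mice 14 months old. Wild-type mice of the strain C57BL/6J (WT) gave 4 libraries, sham-exposed APP/PS1 mice (sham) gave 3, with replicate numbers 1, 3 and 4, and APP/PS1 mice placed in a 0.4 T rotating magnetic field (RMF) gave 4. APP/PS1 mice carry transgenes for mutant forms of the amyloid precursor protein and presenilin-1 and deposit amyloid plaques. Field or sham exposure lasted 12 months on 5 days per week, with daily sessions of 3 h between the ages of 2 and 11 months and of 6 h up to 14 months. Not stated are the promoter of the transgenes, whether WT mice were littermates or were kept in the exposure device, or whether a library stands for 1 animal, and the extraction protocol mentions pooled RNA. The p-values therefore measure spread among libraries only, and part of it may be technical. The cell type is labelled as neurons, yet no isolating step is recorded, and the summed markers of microglia, astrocytes and oligodendrocytes stood at 422 to 829, 3542 to 5123 and 2628 to 10323 CPM with 0 of their markers at 0 in any group.

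Library totals lay between 68124548 counts in sham 4 and 70786786 in RMF 3, and all 15 replicate pairs exceeded counting noise, with ratios of chi-square to degrees of freedom of 15.2 to 217. WT 3 stood apart. Its median correlation with the other WT libraries was 0.973, against 0.986 to 0.992 for the other 10 libraries with their own groups. Its summed dentate granule cell markers were 429 CPM, against 674 to 852 CPM in the other WT libraries, and its neocortex markers summed to 936 CPM, against 354 to 463 CPM. Sham 4 also differed from sham 1 and 3, with ratios of chi-square to degrees of freedom of 130 and 99.1, against 31.7 between sham 1 and 3. Neocortex markers summed to 606 CPM in sham 4, against 380 and 344 CPM in sham 1 and 3. Levels below are CPM, the deposited count relative to the TMM-scaled total of the library on tested genes, or the authors' FPKM, which also divide by transcript length. Tests are edgeR quasi-likelihood tests on counts, adjusted by Benjamini-Hochberg over 21651 genes with a mean count of at least 10, and a gene is called at an adjusted p under 0.05. In tissue RNA, a change in the number of cells of a type and a change in RNA per cell cannot be told apart.

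The 250 bases before the annotated start of 3 of the genes are shown because they set the called gene, Tgfb1, beside the pair with the fewest counts, Il1b and Tnf. They come from RefSeq on GRCm38.p6, matched by symbol for 9 of the 10 genes. The gene table does not share that build, since 0 of 10 genes had the same start. Capitals mark GC boxes (GGGCGG, either strand) in Tgfb1, at chr7:25686752-25687001 on the plus strand, and the TATA box (TATAAA) in Il1b, at chr2:129371140-129371389, and in Tnf, at chr17:35202008-35202257, both on the minus strand.
Tgfb1: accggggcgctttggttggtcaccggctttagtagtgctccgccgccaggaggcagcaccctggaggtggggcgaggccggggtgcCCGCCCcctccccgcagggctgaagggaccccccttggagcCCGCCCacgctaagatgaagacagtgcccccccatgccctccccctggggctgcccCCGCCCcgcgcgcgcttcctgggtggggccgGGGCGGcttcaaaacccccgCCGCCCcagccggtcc
Il1b: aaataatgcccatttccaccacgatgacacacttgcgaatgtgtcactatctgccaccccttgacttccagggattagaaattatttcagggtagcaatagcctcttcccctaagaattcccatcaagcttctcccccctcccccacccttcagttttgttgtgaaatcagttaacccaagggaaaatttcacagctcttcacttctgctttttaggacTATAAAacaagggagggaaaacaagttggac
Tnf: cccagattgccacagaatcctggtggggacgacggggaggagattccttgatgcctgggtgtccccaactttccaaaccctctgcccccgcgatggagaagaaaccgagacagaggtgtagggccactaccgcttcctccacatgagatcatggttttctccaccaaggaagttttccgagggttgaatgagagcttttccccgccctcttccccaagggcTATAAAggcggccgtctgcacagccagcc

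The Tgfb1 window held 5 GC boxes and no TATA box, and 75.2% of its bases were G or C, which put it at percentile 96.1 of 32851 mouse promoters. The median of those promoters was 52.4%. The windows of Il1b and Tnf each held 1 TATA box, with 44.4% and 57.6% of G and C, and Tnf also held 1 GC box, which is not capitalised. The windows of Tgfb2, Il1a, Il18 and Il33 also held a TATA box, Csf1, which was not called, had 2 GC boxes and no TATA box, and Igf1 had neither. Among all promoters of the same length, 12.4% held TATAAA and 32.7% held GGGCGG on either strand. The NF-kB consensus, found in 7.25% of promoters, had 1 match in each of the Tgfb1 and Csf1 windows and none in those of Il1b and Tnf. AP-1 (TGANTCA, 6.75% of promoters) matched once in each of Il1a and Igf1. The PU.1 core (GAGGAA, 23.3%) matched once in each of Tgfb2, Il1a, Igf1 and Tnf. Of the matches in these windows, 0 pairs overlapped. These are matches of letters only.

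On the length-scaled FPKM, Il34 and Il33 led in WT at 21.5 ± 1.51 and 19.9 ± 7.06 FPKM (mean ± SD, n = 4), and their libraries overlapped. Il18 followed at 9.56 ± 0.683 FPKM, below both without overlap. Tgfb2 at 5.10 ± 2.69 and Csf1 at 4.83 ± 1.11 FPKM overlapped each other and lay below Il18. Tgfb1 at 0.878 ± 0.188 and Igf1 at 0.817 ± 0.0663 FPKM also overlapped. Il1a at 0.405 ± 0.0710, Tnf at 0.265 ± 0.0974 and Il1b at 0.227 ± 0.0267 FPKM came last, each overlapping its neighbour. In both APP/PS1 groups Il33 stood first, Tnf stood last, and Tgfb1 lay above Igf1 with no overlap between the libraries. In sham Il33 overlapped Il34 and Tnf overlapped Il1b, while in RMF neither pair overlapped.

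**Figure D1:**
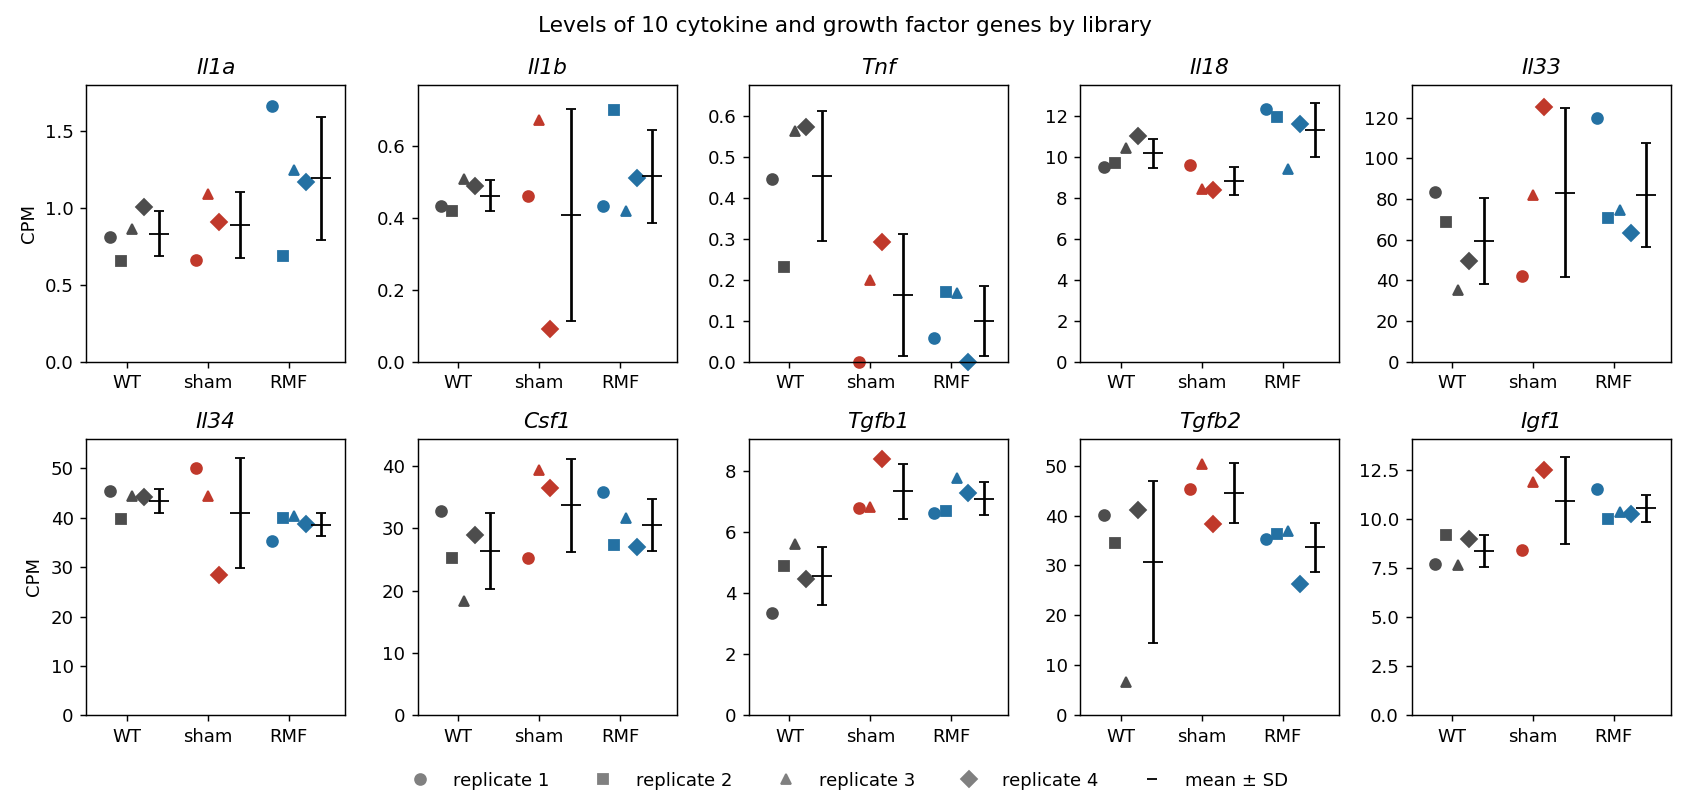
CPM of the 10 genes in each of the 11 libraries; every panel has its own linear axis starting at 0, the symbol gives the replicate number, and bars are the mean ± SD of a group. The 7 APP/PS1 libraries lay at 6.63 to 8.39 CPM for Tgfb1, all above the WT libraries at 3.35 to 5.61 CPM, and WT 3 was far below the other libraries for Tgfb2.

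The first comparison asks what differs in the transgenic hippocampus, as the mean of sham and RMF against WT and for each transgenic group alone; the 3 contrasts share the WT libraries and are not independent. Tgfb1 was the single gene of the 10 that was called, and it was higher in APP/PS1. Of all genes tested, 2.22% were called in this contrast and 2.09% were called higher. In all, 6 of the 10 genes lay above WT, and the median log2 difference over the 10 was 0.29, against -0.01 over all genes. Without WT 3 that median was 0.10. In sham against WT 0 of the 10 were called, where 1.77% of all genes were, and in RMF against WT 0 were called, where 1.88% were. DESeq2 called 1 of the 10, Tgfb1, in each of these contrasts, and 2 of the 10 had an unadjusted p under 0.05 by edgeR in each, beside 12.8% and 9.55% of all genes. In APP/PS1 against WT 3 of the 10 did, beside 12.5%.

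Tgfb1 (ENSMUSG00000002603; chromosome 7, 25386427 to 25404502 as the table gives it, build not stated) stood at 3.35, 4.89, 5.61 and 4.45 CPM in WT 1 to 4. It stood at 6.79, 6.84 and 8.39 CPM in sham 1, 3 and 4. In RMF 1 to 4 it stood at 6.63, 6.71, 7.79 and 7.29 CPM. Every APP/PS1 library was therefore above every WT library, while sham and RMF overlapped; 3.14% of all genes had every APP/PS1 library above every WT library. The deposited counts behind these values were 232 to 397 in WT and 459 to 556 in APP/PS1. The rise was 1.58-fold (95% interval 1.26 to 1.98; log2 difference 0.66, SE 0.148; edgeR adjusted p = 0.0412). Sham alone differed from WT by 0.68 on the log2 scale (adjusted p = 0.0916) and RMF alone by 0.63 (adjusted p = 0.0947). Tgfb1 was the 1 gene of the 10 with all sham libraries above WT, as 7.15% of all genes were, and it and Igf1 were the 2 with all RMF libraries above WT, as 5.06% of all genes were. The call ended when any 1 library other than WT 3 was left out, with adjusted p from 0.0147 without WT 3 to 0.126 without WT 4 and log2 differences from 0.53 to 0.78. It also ended with no filter on low counts (edgeR adjusted p = 0.0679) and with replicate numbers as a block (0.0820). The same was true with a filter of FPKM of at least 1 in 3 libraries and with limma on log2(FPKM + 0.1) or log2(FPKM + 1). DESeq2 kept the call (adjusted p = 0.000845).

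Microglial markers, like Tgfb1, were higher in APP/PS1 than in WT, but within groups their sum and Tgfb1 did not rank the libraries alike. Of 16 listed microglial markers, which include Csf1r, 10 were called higher in APP/PS1 and 0 lower, beside 2.09% of all genes called higher. All 16 had a log2 difference above 0 (median 0.53). Their sum was 422 to 526 CPM in WT, 655 to 829 CPM in sham and 721 to 817 CPM in RMF, with 0 markers at 0. Per 1000 CPM of that sum, Tgfb1 stood at 9.62 ± 2.80 CPM (SD, n = 4) for WT, 10.5 ± 2.27 (n = 3) for sham and 9.20 ± 1.14 (n = 4) for RMF, and the groups overlapped. The same ratio of Il18 was 18.4 to 24.8 CPM in WT, above 10.2 to 14.7 in sham and 12.4 to 16.1 in RMF. Those of Igf1 and Tnf lay below WT without overlap in RMF but not in sham, and those of Csf1, Il1a and Il1b overlapped WT in both. The marker sum was higher in every APP/PS1 library, so such a ratio falls for a gene whose CPM is unchanged. The CPM of Il18 itself differed by -0.03 on the log2 scale. The share of all genes that separate by this ratio was not computed, so the ratios are a description only. Blood leukocyte markers lay above WT as well: all 10 tested of 12 listed had a log2 difference above 0 in APP/PS1 (median 1.84), 0 were called, and their sums of 2.90 to 25.4 CPM in WT, 6.64 to 50.4 CPM in sham and 8.0 to 96.0 CPM in RMF overlapped, with 0 markers at 0 in any group. The part of these cells in the rise of Tgfb1 was not tested.

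Tgfb2, the isoform found in neurons and astrocytes, was not called. It stood at 40.1, 34.6, 6.70 and 41.2 CPM in WT 1 to 4, at 45.2, 50.2 and 38.2 CPM in sham 1, 3 and 4, and at 35.3, 36.2, 36.8 and 26.4 CPM in RMF 1 to 4. WT 3 was the lowest library by far, with 474 counts against at least 1858 in every other library. The log2 difference of APP/PS1 from WT was 0.34 (95% interval -0.45 to 1.13; edgeR adjusted p = 0.740) and fell to 0.01 without WT 3. That library also had the lowest sum of dentate granule cell markers, as given above; the part of tissue composition in its Tgfb2 level was not tested. Tgfb2 overlaps 2 other genes, Gm29491 and Gm35546, with 0 to 35 and 0 to 59 counts, and the use of strand in counting is not given.

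Igf1, which microglia near plaques are known to express, stood at 7.69, 9.15, 7.63 and 8.98 CPM in WT 1 to 4. Sham 1, 3 and 4 stood at 8.41, 11.9 and 12.5 CPM, and RMF 1 to 4 at 11.5, 10.01, 10.3 and 10.2 CPM. RMF did not overlap WT, while sham 1 lay within the WT range. The mean APP/PS1 level was 1.28-fold the WT level (95% interval 1.06 to 1.55), which did not pass the adjustment (edgeR unadjusted p = 0.0138, adjusted p = 0.237). Liver also makes Igf1, and 19 of 20 liver genes on a marker list were called higher in APP/PS1, beside 2.09% of all genes. The other is Ttr, which choroid plexus makes too and which was not called (log2 difference -1.25; edgeR adjusted p = 0.405). The sum of the 20 was 38.2 to 206 CPM in WT, 272 to 422 CPM in sham and 135 to 318 CPM in RMF, with 2 of the 20 at 0 in every WT library. Without Ttr, which was left out after its values were seen, it was 2.83 to 22.8 CPM in WT, 243 to 397 CPM in sham and 115 to 216 CPM in RMF. Sham 1 had the highest liver sum and the lowest Igf1 of the 7 APP/PS1 libraries. Sham 3, sham 4 and RMF 1 came next in liver sum and were the highest in Igf1. The part of liver RNA in the Igf1 values was not tested.

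The CSF1R ligands were not called. Csf1 ran from 18.4 to 32.7 CPM in WT, 25.2 to 39.3 CPM in sham and 26.9 to 35.9 CPM in RMF, with overlap between all groups (APP/PS1 against WT, log2 difference 0.28, 95% interval -0.08 to 0.64; edgeR adjusted p = 0.518). Il34 stood at 43.4 ± 2.48 CPM for WT, 40.98 ± 11.2 for sham and 38.6 ± 2.30 for RMF, and its lowest library was sham 4 at 28.4 CPM. Its log2 difference was -0.13 (95% interval -0.40 to 0.15; adjusted p = 0.714).

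The classical inflammatory cytokines Il1a, Il1b and Tnf had low counts, and of these Tnf alone fell to 0 in any library. Il1b had 30, 29, 36 and 34 counts in WT 1 to 4, 32, 47 and 6 counts in sham 1, 3 and 4, and 30, 49, 30 and 36 counts in RMF 1 to 4. All libraries but 1 lay between 29 and 49 counts; the 6 counts of sham 4 had an exact Poisson 95% interval of 2.20 to 13.1, below that of each other library. The log2 difference of APP/PS1 from WT was -0.01, and its 95% interval ran from -0.95 to 0.93 (edgeR adjusted p = 0.996).

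Il1a had 56, 45, 61 and 70 counts in WT 1 to 4 and 46, 76 and 59 in sham 1, 3 and 4. RMF 1 to 4 had 115, 48, 89 and 82 counts. RMF 1, 3 and 4 lay above every WT library and RMF 2 did not. The log2 difference of RMF from WT was 0.51 (95% interval -0.15 to 1.18; edgeR adjusted p = 0.668). Gm14023 and Il1bos overlap Il1a and Il1b, with 7 to 40 and 0 to 18 counts, and reads of either could not be separated without strand.

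Tnf had 31, 16, 40 and 40 counts in WT 1 to 4, 0, 14 and 19 in sham 1, 3 and 4, and 4, 12, 12 and 0 in RMF 1 to 4. Its counts were higher in WT than in APP/PS1 except that WT 2, at 16, lay below sham 4, at 19. All RMF libraries were below all WT libraries, as were 2.48% of all genes. Tnf passed the minimum mean count through WT, with a mean of 31.8 counts there and 8.71 in APP/PS1. The mean level was 0.455 ± 0.159 CPM (SD, n = 4) for WT, 0.164 ± 0.149 (n = 3) for sham and 0.0994 ± 0.0848 (n = 4) for RMF, with a level of 3 counts at about 0.0432 CPM in sham 1. The difference of APP/PS1 from WT, -1.82 on the log2 scale (95% interval -3.63 to -0.01), did not pass the adjustment (edgeR unadjusted p = 0.0487, adjusted p = 0.395). For RMF against WT it was -2.17 (adjusted p = 0.524). Intervals on counts cover counting error only.

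Il18 and Il33, stored cytokines of the interleukin-1 family, were not called either. Il18 stood at 9.50 to 11.0 CPM among WT, 8.40 to 9.63 among sham and 9.40 to 12.4 among RMF libraries (APP/PS1 against WT, log2 difference -0.03, 95% interval -0.25 to 0.20; edgeR adjusted p = 0.943). It overlaps Bco2, with 157 to 260 counts, and Tex12. Il33 varied widely within groups, and all groups overlapped.

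Il33 stood at 83.4, 68.8, 35.4 and 49.4 CPM in WT 1 to 4. It stood at 42.4, 81.9 and 125.1 CPM in sham 1, 3 and 4 and at 119.7, 70.8, 74.4 and 63.3 CPM in RMF 1 to 4. Sham 4, RMF 1 and WT 1 were highest and WT 3 lowest, and the same libraries were the highest and the lowest for the sum of 12 oligodendrocyte markers. That sum was 8763, 10323 and 8690 CPM in the first 3 and 2628 CPM in WT 3. It ran from 2628 to 8690 CPM across WT, 4238 to 8763 across sham and 5018 to 10323 across RMF, with 0 of 12 markers called in any contrast and 0 at 0. All 12 had a log2 difference above 0 in APP/PS1 against WT, with a median of 0.40. The log2 difference of Il33 between APP/PS1 and WT was 0.48 (95% interval -0.19 to 1.14; edgeR adjusted p = 0.555). The part of oligodendrocyte RNA in the spread of Il33 was not tested.

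**Figure D2:**
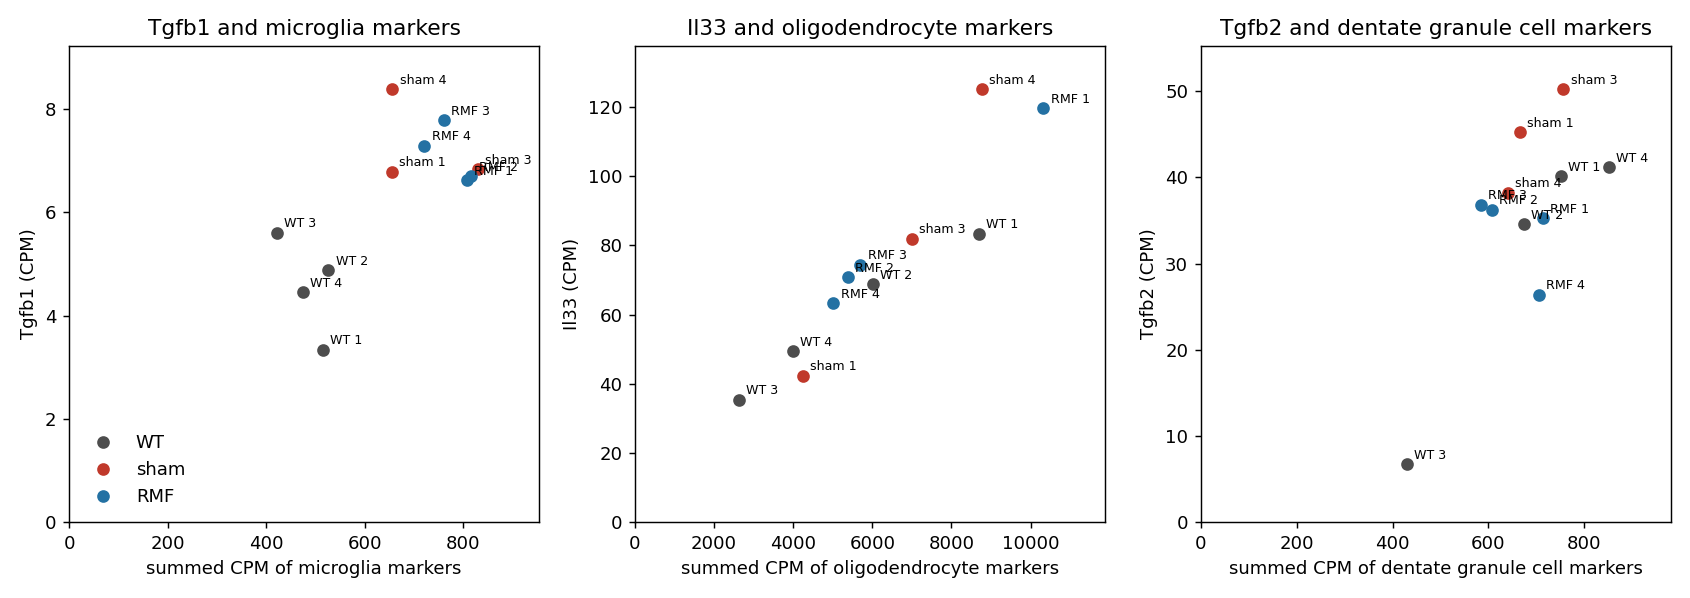
Each point is 1 of the 11 libraries; the y axes give CPM of Tgfb1, Il33 and Tgfb2 and the x axes the summed CPM of markers of microglia, oligodendrocytes and dentate granule cells. APP/PS1 libraries lay above WT on both axes of the first panel, Il33 and oligodendrocyte markers were both lowest in WT 3 in the second, and WT 3 lay alone at 6.70 CPM of Tgfb2 and 429 CPM of granule cell markers in the third.

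The pathway lists hold receptors, binding and processing partners and other ligands. Of 90 listed genes, 77 were tested, 23 of them ligands. In APP/PS1 against WT 4 of the 77, or 5.19%, were called higher and 0 lower, beside 2.22% of all genes called and 2.09% called higher. The lists were chosen with earlier results of these data known, so these shares are a description and not a test. In sham against WT 1 was called higher, beside 1.65% of all genes, in RMF against WT 2, beside 1.79%, and between RMF and sham 0. Tnfrsf1a, the main receptor of tumour necrosis factor, was 1 of 6 called in its list. It rose 1.67-fold from 6.43 ± 1.09 CPM (SD) for WT to 11.0 ± 1.22 for sham and 10.6 ± 1.51 for RMF (95% interval 1.35 to 2.07; edgeR adjusted p = 0.0145). It lay at 4.86 to 7.26 CPM in WT and at 9.17 to 12.2 CPM in the 7 APP/PS1 libraries, with no overlap. It also rose in sham alone (adjusted p = 0.0390) and in RMF alone (adjusted p = 0.0374). The sham call ended when any library other than WT 3 was left out (adjusted p 0.0284 to 0.152), and the RMF call ended without WT 1, 2 or 4, sham 3 or any RMF library (0.0285 to 0.134). Both also ended with no filter on low counts (0.0691 and 0.0648), with an FPKM of at least 1 in 3 libraries (0.0629 and 0.0578), with only the 2 groups fitted (0.138 and 0.0807) and with the replicate block (0.147 and 0.106), and the sham call with limma on log2(FPKM + 1) (0.0628) and without WT 3 and sham 4 together (0.0836).

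Csf1r, the receptor of CSF1 and interleukin-34, stood at 75.5, 70.4, 57.9 and 66.4 CPM in WT 1 to 4. Sham 1, 3 and 4 stood at 91.7, 109.3 and 80.6 CPM and RMF 1 to 4 at 103.9, 107.0, 98.4 and 100.8 CPM. All APP/PS1 libraries exceeded all WT libraries. The rise was 1.45-fold (95% interval 1.26 to 1.67; edgeR adjusted p = 0.00793), and it was 1.52-fold in RMF alone (adjusted p = 0.00813). In sham alone the difference was 1.39-fold (adjusted p = 0.0568), and it was called without sham 4 (adjusted p = 0.0229). Sdc1, a syndecan that can bind interleukin-34, rose 2.75-fold from 13 to 42 counts in WT to 64 to 106 counts in APP/PS1 (95% interval 1.66 to 4.54; adjusted p = 0.0440), and its call ended without any library other than WT 3 (adjusted p 0.0313 to 0.138), with no filter on low counts (0.0760), with the replicate block (0.176) and without WT 3 and sham 4 together (0.0547). The block also ended the call of Csf1r in RMF alone (0.0509). Ptprz1, the other listed receptor of interleukin-34, had a log2 difference of 0.32 (adjusted p = 0.295).

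In the TGF-β list, 1 of 19 tested genes was called. Tgfbr1, the type I receptor, rose 1.45-fold from 25.2 to 35.9 CPM in WT to 40.0 to 52.1 CPM in APP/PS1, with no overlap (95% interval 1.21 to 1.73; edgeR adjusted p = 0.0364). That call ended without WT 2, 3 or 4, sham 3 or 4, or RMF 1 or 2 (adjusted p 0.0337 to 0.104). It also ended with no filter on low counts (0.0754), an FPKM of at least 1 in 3 libraries (0.0501), limma on log2(FPKM + 1) (0.0522), the replicate block (0.0969) and without WT 3 and sham 4 together (0.0627). The median log2 difference of the list was 0.08. Of the IGF receptors and binding proteins 0 of 11 were called (median 0.04), of the interleukin-1 family receptors 0 of 9 (median 0.13), and of 23 other tested ligands 0 (median -0.03). Of the 6 genes that process interleukin-1, 0 were called (median 0.94). Tgfb1, Csf1r, Tnfrsf1a and Tgfbr1 are all expressed by microglia, whose markers were higher in the same libraries, as given above. Summed astrocyte markers were higher there too, at 3542 to 4298 CPM in WT, 4684 to 5123 in sham and 4692 to 5053 in RMF. Of those 12 markers 10 had a log2 difference above 0, and 1, Gfap, was called, beside 2.22% of all genes. The part of either cell type in these calls was not tested.

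**Figure D3:**
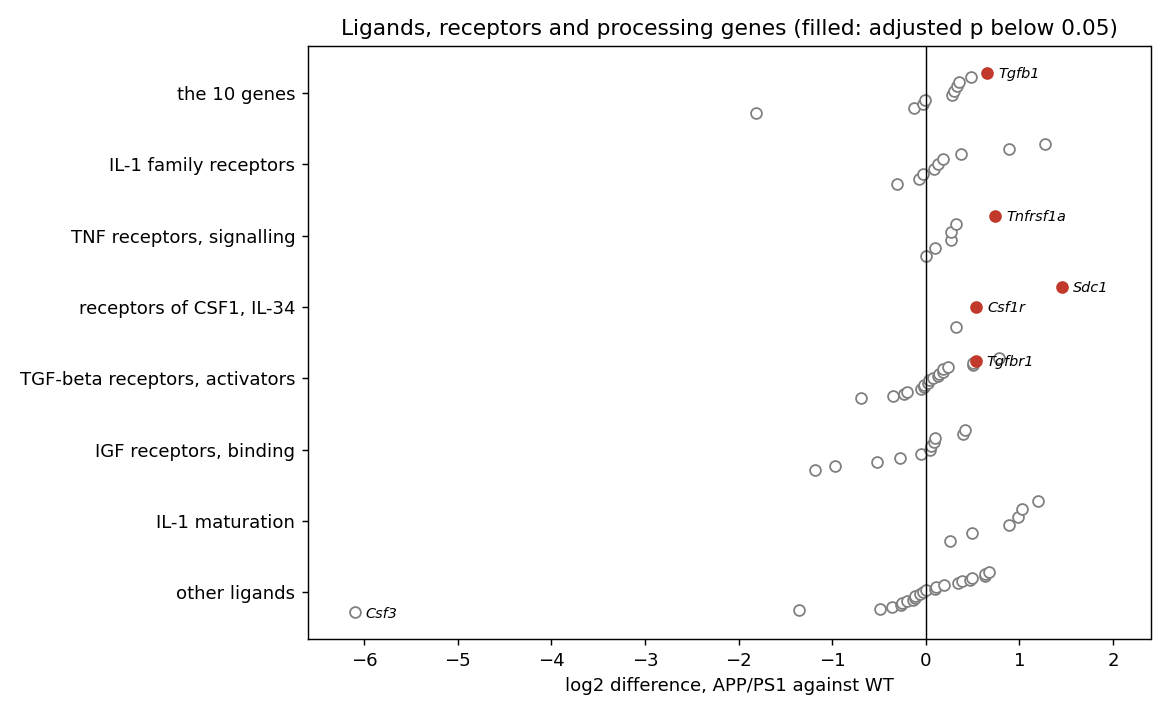
Log2 difference between APP/PS1 and WT (x axis) for each tested gene of the 10 and of the 7 pathway lists (rows); filled points have an edgeR adjusted p under 0.05, and the 5 filled points all lie to the right of 0. The point at -6.10 is Csf3, labelled after its value was seen because it stands alone, and its groups overlapped (adjusted p = 0.115).

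The second comparison asks what differs after field exposure among APP/PS1 mice. Between RMF and sham 0 of the 10 genes were called, and 0% of all genes were: edgeR called 0 of 21651, with 5.51% at an unadjusted p under 0.05, and DESeq2 called 16, of which 0 were among the 10. In all, 3 of the 10 genes lay above sham and 7 below, with a median log2 difference of -0.05, against 0.00 over all genes. Tgfb1 differed by -0.05 on the log2 scale (95% interval -0.43 to 0.33), Igf1 by -0.05 (-0.38 to 0.27) and Il34 by -0.09 (-0.42 to 0.25). The intervals were far wider for Tnf (-3.05 to 1.63) and Il1b (-0.82 to 1.48), so that moderate differences in these genes were not detectable. Spread among libraries enters these intervals beside low counts, as with the 6 counts of Il1b in sham 4. Tgfb2 (-1.35 to 0.54) and Il33 (-0.81 to 0.77), with far higher counts, also had wide intervals.

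Il18 had the smallest p of the 10 between RMF and sham. It stood at 9.63, 8.44 and 8.40 CPM in sham 1, 3 and 4 and at 12.4, 11.9, 9.40 and 11.6 CPM in RMF 1 to 4. RMF 3 lay within the sham range and the other RMF libraries above it. The difference was 1.28-fold (95% interval 1.06 to 1.55) and did not pass the adjustment (edgeR unadjusted p = 0.0146, adjusted p = 0.898).

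Tgfb2 was the 1 gene of the 10 whose RMF and sham libraries did not overlap, at 26.4 to 36.8 CPM in RMF and 38.2 to 50.2 CPM in sham; 4.13% of all genes had every RMF library below every sham library. The log2 difference was -0.40 (95% interval -1.35 to 0.54; edgeR adjusted p = 0.980). WT 3 enters the shared estimate of spread, and without it the adjusted p was 0.491. Il1a (log2 difference 0.42, adjusted p = 0.959), Il33 (-0.02, adjusted p = 0.9999) and Csf1 (-0.14, adjusted p = 0.990) overlapped between the groups.

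**Figure D4:**
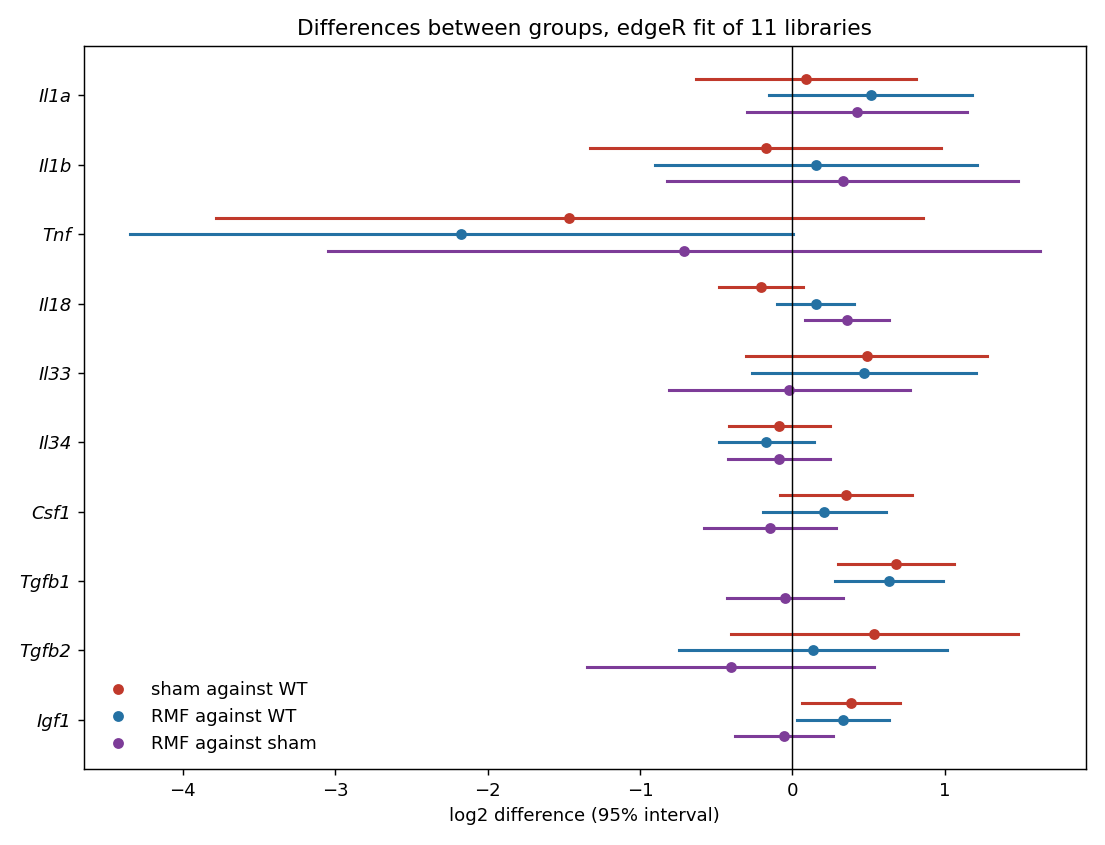
Log2 difference with its 95% interval (x axis) for each of the 10 genes (rows) in sham against WT, RMF against WT and RMF against sham, from 1 edgeR fit of 11 libraries. Both intervals against WT lie above 0 for Tgfb1 and Igf1, the interval of RMF against sham lies above 0 for Il18, and those of Tnf are the widest.

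For the 7 genes with a mean count of at least 100, the transcripts with the most similar pattern over the 11 libraries were found by Pearson correlation of log2(CPM + 0.5), as a description over libraries that share tissue composition. Tgfb2 was closest to Tnfaip8l3 (r = 0.996) and Bves (r = 0.992), and Il33 to Kif13a (r = 0.991) and Ttyh2 (r = 0.985). WT 3 stood at 6.70 CPM for Tgfb2 and every other library at 26.4 CPM or more. That library thus weighs heavily in the correlations of Tgfb2, which were not computed without it. Atp2a3 was among the transcripts most like Tgfb1 (r = 0.913), and Igf1 was closest to Galnt5 and Ptpn22 (r = 0.920 each). Csf1 was closest to Adamtsl1 (r = 0.947) and Neo1 (r = 0.946), Il34 to Panx1 (r = 0.916) and Cog8 (r = 0.914), and Il18 to BC048644 (r = 0.903).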

How the data were processed

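Total RNA of hippocampus (5 µg a library, oligo(dT) beads, paired reads of 150 bp) was sequenced and trimmed with Cutadapt 1.9, per the labels' protocols. HISAT2 2.0.4, StringTie 1.3.4d and edgeR are listed in the submitters' processing notes, with a human genome build although the identifiers are of mouse. The sources used here give no mouse build, counting tool or strand setting. Raw whole-number counts and FPKM were deposited by the authors for each gene and library. The 2 value columns that matched no sample were not used.

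The deposited counts of 11 libraries were fitted together as 3 groups with no covariate (edgeR 4.0.16 in R 4.3.3, TMM scaling, quasi-likelihood F test, Benjamini-Hochberg adjustment). Genes with a mean count of at least 10 were tested, which all 10 genes met, so the exact permutation test foreseen for untested genes was not needed. APP/PS1 against WT is the mean of the sham and RMF coefficients. Standard errors come from the F statistic and 95% intervals from its degrees of freedom. CPM divide by TMM-scaled counts of tested genes, so levels are relative. The steps were tested on simulated counts. Replicate numbers did not pair libraries, as given with the alternatives.

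The genes, pathway lists and marker lists were chosen with earlier results of these data known. Beside the 10 genes, the text names pathway genes past the threshold in any contrast and the 2 most correlated genes of each of the 10 with a mean count of at least 100; Il1a, Il1b and Tnf missed that minimum, 1 of those genes has no symbol in the table, and another is not reported here. Ptprz1, Csf3 and the processing genes were named after their values were seen. Alternatives were DESeq2 1.42.0, limma 3.58.1 on log2(FPKM + 0.1 or + 1), other scaling and filters, other groupings, a replicate block and leaving out libraries; leaving out WT 3 and sham 4 together was added after seeing the data. A level of 3 counts served as the floor.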

Additional observations from a re-analysis of the deposited data

Results flagged for a closer look

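Tgfb2 stood at 26.4 CPM in RMF 4, and the other RMF libraries lay between 35.3 and 36.8 CPM. The gap was 0.851 of the range of the group, above Dixon's 95% critical value for 4 libraries. Among 28 groups of 4 libraries examined, over 14 genes, this was the 1 that passed, and chance gives about 1 in 20. The Tgfb2 level of WT 3, at 6.70 CPM, did not pass; the other WT libraries lay between 34.6 and 41.2 CPM.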

How the results depend on the processing

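Genes called in sham against WT numbered 383, but 754 with DESeq2 (611 higher, 143 lower), 134 with an FPKM of at least 1 in 3 libraries, 180 with only the 2 groups fitted and 213 with the replicate block. In RMF against WT they numbered 407, but 708, 172 and 233 with DESeq2, the FPKM filter and the block, and in APP/PS1 against WT 480, but 907, 206 and 318. Between RMF and sham DESeq2 called 16 genes, and leaving out 1 library gave 0 to 1, the 1 without sham 1. Of the 10 genes, leaving out 1 library gave 0 to 1 called in each contrast with WT, always Tgfb1. DESeq2 called 1 in sham against WT and 1 in RMF against WT (adjusted p = 0.00957 and 0.0101), as did leaving out WT 3 (0.0322 and 0.0318), and leaving out WT 3 and sham 4 together called 1 in RMF against WT. In APP/PS1 against WT 0 were called with no filter on low counts, the FPKM filter (adjusted p = 0.0585), limma on log2(FPKM + 0.1) or log2(FPKM + 1) (0.0548 and 0.0520) and the block; the cause was not tested.

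The labels number replicates alike across groups, but 10 same-numbered pairs correlated from -0.285 to 0.191, 1 of them above 0.1, and 3 of 11 libraries correlated best with their own number, so the numbers are not taken as pairs. Under the block the adjusted p in APP/PS1 against WT was 0.0820 for Tgfb1, 0.0610 for Tnfrsf1a, 0.0435 for Csf1r, 0.0969 for Tgfbr1 and 0.176 for Sdc1. The block gave log2 differences of -0.0830 for Il1a in sham against WT and -0.0264 for Tgfbr1 between RMF and sham.

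Differences that changed sign were of genes that were not called in that contrast. Without WT 3 and sham 4 these were Il1b 0.34, Il33 -0.11 and Il34 0.13 in sham against WT, Il1b -0.14, Il33 0.40, Tgfb1 0.0582, Igf1 0.0538, Tnfrsf1a 0.0276 and Tgfbr1 -0.00335 between RMF and sham, Tgfb2 -0.20 in RMF against WT, and Il1b 0.27 and Il18 0.00431 in APP/PS1 against WT. With 7 APP/PS1 libraries as 1 group Il1b was 0.0246 and Il18 0.0105. With limma Il33 was 0.11 and 0.10, and Igf1 0.00476 at the offset of 0.1, between RMF and sham. Leaving out 1 library gave, in sham against WT, -0.0858 to 0.26 for Il1a, -0.73 to 0.29 for Il1b and -0.25 to 0.12 for Il34. Between RMF and sham it gave -0.14 to 0.89 for Il1b, -0.34 to 0.40 for Il33, -0.29 to 0.0847 for Il34, -0.10 to 0.0581 for Tgfb1, -0.21 to 0.0538 for Igf1, -0.13 to 0.0276 for Tnfrsf1a, -0.0508 to 0.12 for Tgfbr1 and -0.0247 to 0.22 for Sdc1. In RMF against WT it gave -0.0249 to 0.24 for Il1b and -0.20 to 0.31 for Tgfb2, and in APP/PS1 against WT -0.29 to 0.22 for Il1b and -0.0600 to 0.0158 for Il18. Low counts limit Il1a, Il1b, Tnf and Sdc1.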

Other observations

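Of the 6 listed genes that turn the precursors of interleukin-1β and interleukin-18 into released cytokines, 0 were called in any contrast, as was the case for Il1b and Il18, and the 6 log2 differences of APP/PS1 from WT were above 0. Their values are given because they were seen to lie on 1 side. Naip5, a receptor that can seed an inflammasome, stood at 2.26 CPM in WT and 4.63 CPM in APP/PS1 with libraries that did not overlap (log2 difference 1.03; edgeR adjusted p = 0.0677). Nlrp3, the sensor of another inflammasome, had a log2 difference of 0.99 (adjusted p = 0.218), Casp1 of 0.88 (adjusted p = 0.254), Casp4 of 1.20 (adjusted p = 0.254), Gsdmd, which forms the pore of release, of 0.49 (adjusted p = 0.279) and Pycard, the adaptor, of 0.26 (adjusted p = 0.637). The sum of the 6 was 8.39 to 10.4 CPM in WT, 12.1 to 18.2 CPM in sham and 15.6 to 18.5 CPM in RMF. Microglial marker sums were higher in the same libraries, and leukocytes, whose 10 tested markers had a median log2 difference of 1.84 with 0 called, also express genes of this kind; the part of either was not tested.

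Adam17, the protease that sheds tumour necrosis factor and its receptors, stood at 16.2 CPM in WT and 20.4 CPM in APP/PS1 with no overlap (log2 difference 0.33; adjusted p = 0.0728). Tgfbr2, which pairs with Tgfbr1, had a log2 difference of 0.50 (adjusted p = 0.0677). Both were named after their values were seen.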
